A study of Mus musculus with 12 samples.

Results

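The transcripts of the NF-kB transcription factor subunits and of the IkB proteins that bind them were measured in airway macrophages (AMs) of Scnn1b-Tg and wild-type (WT) mice. The set was given by name as 10 genes, all of which were among the 20551 genes of the count table: the 5 subunit genes Nfkb1, Nfkb2, Rel, Rela and Relb, the 3 genes of cytoplasmic inhibitors Nfkbia, Nfkbib and Nfkbie, and the 2 genes of nuclear IkB proteins Nfkbiz and Bcl3. They were listed by name, with no threshold on a measured value. Scnn1b-Tg mice carry a transgene for the beta subunit of the epithelial sodium channel, which is driven in the airways by the club cell secretory protein promoter, and serve as a model of muco-obstructive lung disease. All mice were C57BL/6, and 6 weeks old per the study's methods, with WT littermates as controls. The 4 groups were WT AMs in medium, Scnn1b-Tg AMs in medium, WT AMs with LPS and Scnn1b-Tg AMs with LPS, where LPS stands for 100 ng/ml of lipopolysaccharide from P. aeruginosa and both treatments lasted 12 h. Each group held 3 libraries. Cells of 3 to 4 animals were combined per pool according to the labels, and each of the 6 pools (WT 16, 17 and 18, Scnn1b-Tg 17, 18 and 19) gave 1 medium and 1 LPS library, so p-values measure the spread between pools. By the labels the cells were plated lavage cells that adhered, by the study's methods AMs were sorted from digested lungs before sequencing, and it cannot be told here which of these the libraries hold. Batch 1 held WT 16, WT 17 and Scnn1b-Tg 17, and batch 2 held WT 18, Scnn1b-Tg 18 and Scnn1b-Tg 19. The batches are those of the labels, and the study's methods name the date of library preparation.

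Libraries held 48.2 to 60.9 M deposited counts, and the lowest deposited count of any member in a library was 150, for Nfkbiz in medium. One read pair is worth several such counts. All 12 AM markers listed were detected, although Siglecf, one of the surface markers named for the sort, was at 103 to 128 CPM (counts per M counts, scaled by TMM) in medium and at 5.08 to 13.5 CPM with LPS. Scnn1b itself had 0 to 40 counts over all libraries, so the libraries' genotype labels could not be checked from the transgene. In bulk RNA, fewer cells that express a gene and less RNA per cell cannot be told apart.

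NF-kB proteins act as dimers of subunits that share a DNA-binding Rel homology domain. In resting cells the cytoplasmic IkB proteins hold most dimers away from the nucleus. LPS, sensed by Toll-like receptor 4, activates a kinase complex that marks these inhibitors for degradation, and the freed dimers enter the nucleus, where they switch on inflammatory genes and also the genes of several of their own inhibitors and subunits. In the slower, non-canonical branch, p100, the product of Nfkb2, is cut to p52, which pairs with RelB. Transcript levels, which are what was measured here, do not show where the proteins are or whether they are bound.

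Promoter sequences are shown because NF-kB is known to act on genes of its own pathway, so that a reader can see where letters of its binding motif lie in front of the genes whose transcripts are described. RefSeq windows on GRCm38.p6, the patch release of the mm10 build, were at hand for 7 of the 10 members and covered the 250 bases before each annotated start, with 9 windows in all. No window is shown for Nfkb1, Relb and Nfkbiz. Each window was searched on both strands for the 10-base NF-kB consensus. A match was found in windows of Nfkb2, Rel, Nfkbia and Nfkbie, and none in those of Rela, Nfkbib and Bcl3. Over all 32851 windows of the same length, 1281 (3.90%) held a match and 0.493% held at least 2. The following windows are written 5′ to 3′ on the gene's strand, with the matching letters in capitals.
Nfkbia, chr12:55492648-55492897, minus strand: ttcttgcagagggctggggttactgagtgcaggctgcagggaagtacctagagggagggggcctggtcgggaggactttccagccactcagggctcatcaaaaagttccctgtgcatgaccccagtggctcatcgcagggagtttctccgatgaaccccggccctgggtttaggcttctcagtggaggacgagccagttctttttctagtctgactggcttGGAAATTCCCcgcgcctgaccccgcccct
Nfkbie, chr17:45555450-45555699, plus strand: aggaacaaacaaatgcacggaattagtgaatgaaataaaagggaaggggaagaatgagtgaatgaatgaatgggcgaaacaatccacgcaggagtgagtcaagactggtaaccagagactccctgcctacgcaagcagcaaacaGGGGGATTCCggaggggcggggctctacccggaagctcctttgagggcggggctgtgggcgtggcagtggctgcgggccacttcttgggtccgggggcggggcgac
Rel, chr11:23770970-23771219, minus strand: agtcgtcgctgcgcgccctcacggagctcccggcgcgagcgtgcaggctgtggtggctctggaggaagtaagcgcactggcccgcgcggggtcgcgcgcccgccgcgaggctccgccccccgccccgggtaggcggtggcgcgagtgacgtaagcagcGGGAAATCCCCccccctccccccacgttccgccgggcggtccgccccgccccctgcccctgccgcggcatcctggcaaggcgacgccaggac
Nfkb2, chr19:46305445-46305694, plus strand: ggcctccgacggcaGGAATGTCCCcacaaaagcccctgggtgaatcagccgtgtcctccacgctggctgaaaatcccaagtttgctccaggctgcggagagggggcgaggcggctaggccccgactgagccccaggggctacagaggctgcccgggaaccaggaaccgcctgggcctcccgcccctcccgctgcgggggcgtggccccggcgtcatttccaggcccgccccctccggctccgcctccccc

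The Nfkbia match began 29 bases before the start and that of Nfkbie 106 bases before it. In Rel, matches on the 2 strands overlapped at 92 and 91 bases before the start, so the capitals span 11 letters. Nfkb2 had 3 annotated starts. Its window above held GGAATGTCCC at 236 bases before the start. The window of the most upstream start (chr19:46304487-46304736) held GGGAATTCCC at 39 bases, with a further match 1 base along, and GGGGCTTTCC at 11 bases before the start. The window of the third start (chr19:46305680-46305929) held GGGACTTTCC at 225 bases before the start. A match is a description of letters and does not show that the factor binds there, and the absence of a match covers only these windows.

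The response of the family to LPS was tested within each genotype. All 10 members rose with LPS in WT AMs and all 10 rose in Scnn1b-Tg AMs, by edgeR's quasi-likelihood test with Benjamini-Hochberg adjustment over 13729 genes. The adjusted p was at most 2.43e-04 in WT and at most 0.00208 in Scnn1b-Tg AMs. Among all genes tested, 15.5% were called higher in WT and 19.3% in Scnn1b-Tg AMs. The LPS and medium libraries did not overlap for any member in either genotype, which held for 18.7% of all genes in the upward direction in WT and for 22.3% in Scnn1b-Tg AMs. The median log2 fold change of the members was 1.22 in WT and 1.77 in Scnn1b-Tg AMs, against 0.0029 and -0.02 over all genes. Marker sums also moved with LPS. Those of the 12 AM markers were 17229 to 17554 CPM in WT medium and 12514 to 14860 CPM in WT LPS, whereas in Scnn1b-Tg AMs they overlapped, at 19386 to 23314 CPM in medium and 14598 to 19757 CPM with LPS. By edgeR 6 of these 12 were called lower with LPS in WT and 7 in Scnn1b-Tg AMs, and Marco, Car4 and Adgre1 were called higher in both genotypes. The sums of 6 detected T or NK cell markers, nearly all of it Cd2, were 143 to 209 CPM over the medium libraries and 13.0 to 37.1 CPM over the LPS libraries. Monocyte marker sums overlapped in WT, at 8.78 to 10.7 CPM in medium and 10.5 to 14.1 CPM with LPS. In Scnn1b-Tg AMs they were 6.49 to 9.91 CPM and 11.1 to 12.6 CPM, without overlap. Most of these sums was Itgam, which was called in neither genotype. It overlapped in Scnn1b-Tg AMs, at 5.41 to 8.86 CPM in medium and 8.60 to 10.8 CPM with LPS. Of the monocyte markers 0 were called higher and 1 (Ccr2) lower in WT. In Scnn1b-Tg AMs 2 (Ly6c2 and Vcan) were called higher and 1 (Ccr2) lower. Ly6c2, Vcan and Ccr2 reached at most 1.50 CPM in any library. B cell sums were 0.522 to 0.978 CPM and 0 to 0.359 CPM in WT, and overlapped in Scnn1b-Tg AMs. Neutrophil marker sums were 17.1 to 20.8 CPM in medium and 12.0 to 15.3 CPM with LPS in WT. In Scnn1b-Tg AMs they were 25.6 to 37.7 CPM and 16.5 to 22.0 CPM. Within this list 2 genes were called lower with LPS in WT and 3 in Scnn1b-Tg AMs, whereas S100a8 was called higher in both. Dendritic cell marker sums were 0.860 to 1.48 CPM over the medium libraries and 2.16 to 3.63 CPM over the LPS libraries. Most of the LPS sums was Zbtb46, at 1.80 to 3.08 CPM. Zbtb46 was called higher with LPS in both genotypes, whereas Clec9a of the same list was called lower in both. The part of the marker sums in the result was not tested.

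**Figure D1:**
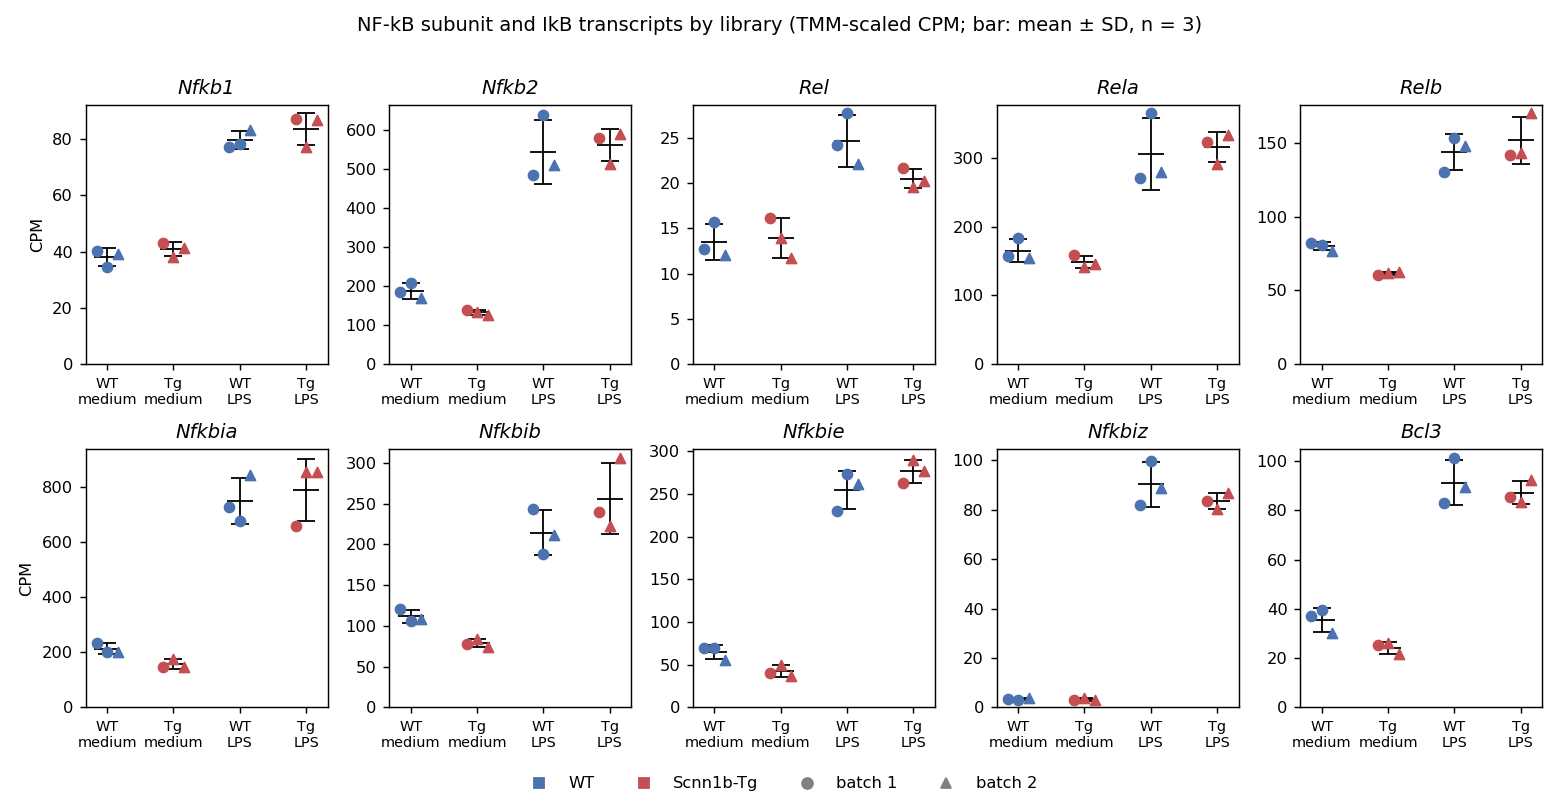
TMM-scaled CPM of the 10 members (vertical axes, linear and starting at 0) in each of the 12 libraries, by group, with batch 1 as circles and batch 2 as triangles and with the mean and SD of 3 libraries as black bars. In every panel the 6 LPS libraries lie above the 6 medium libraries, and for Nfkb2, Relb, Nfkbia, Nfkbib, Nfkbie and Bcl3 the 3 Scnn1b-Tg medium libraries lie below the 3 WT medium libraries.

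Rela (mm10, chromosome 19, 5637483 to 5648130, plus strand) encodes p65, the transactivating subunit of the canonical dimer. It was at 158, 184 and 154 CPM in WT medium (pools 16, 17 and 18) and at 271, 366 and 280 CPM in WT LPS. In Scnn1b-Tg AMs (pools 17, 18 and 19) it was at 159, 142 and 146 CPM in medium and at 323, 292 and 334 CPM with LPS. The genotypes overlapped within each treatment, and only the treatments separated. The log2 fold change was 0.89 ± 0.11 (SE) in WT and 1.09 ± 0.11 in Scnn1b-Tg AMs, or 1.85-fold and 2.13-fold.

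Nfkb1 (chromosome 3, 135584655 to 135691547, minus strand) encodes p105, the precursor of the p50 subunit, which lacks a transactivation domain of its own. Its levels were 40.3, 34.6 and 39.3 CPM in WT medium, and 77.2, 78.4 and 83.4 CPM in WT LPS. Scnn1b-Tg AMs showed 43.2, 38.1 and 41.2 CPM in medium, and 87.1, 77.1 and 86.8 CPM with LPS. The response was nearly the same size in both genotypes, at 2.09-fold (log2 1.07 ± 0.09) in WT and 2.05-fold (1.03 ± 0.09) in Scnn1b-Tg AMs. Again the genotypes overlapped in medium and in LPS.

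Nfkb2 (chromosome 19, 46304320 to 46312385, plus strand) had the largest fitted rise of the 5 subunits in both genotypes. WT AMs held 185, 208 and 168 CPM in medium and 484, 638 and 511 CPM with LPS. Scnn1b-Tg AMs held 139, 133 and 126 CPM in medium and 579, 514 and 591 CPM with LPS. The genotypes were therefore apart in medium and overlapped in LPS. The rise was 2.91-fold in WT (log2 1.54 ± 0.11) and 4.25-fold in Scnn1b-Tg AMs (log2 2.09 ± 0.11). Exons of Nfkb2 share 830 bp with the antisense AC114539.1 and with Psd, and counting ignored strand. Psd was at 1.77 to 6.79 CPM over all libraries, so its own level was small beside that of Nfkb2.

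Relb (chromosome 7, 19606217 to 19629438, minus strand) encodes the partner of p52. In medium, the 3 WT libraries stood at 82.1, 81.0 and 76.8 CPM and the 3 Scnn1b-Tg libraries at 60.1, 61.6 and 62.4 CPM. With LPS they stood at 130, 153 and 148 CPM in WT and at 142, 143 and 170 CPM in Scnn1b-Tg AMs. The picture was that of Nfkb2, with a gap between genotypes in medium and none in LPS. Fitted rises were 1.79-fold in WT (log2 0.84 ± 0.09) and 2.47-fold in Scnn1b-Tg AMs (log2 1.30 ± 0.09).

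Rel (chromosome 11, 23736847 to 23770970, minus strand) encodes c-Rel, best known from lymphocytes and activated myeloid cells. It was the weakest responder in Scnn1b-Tg AMs, where medium libraries held 16.1, 13.9 and 11.7 CPM and LPS libraries 21.7, 19.6 and 20.2 CPM. WT AMs went from 12.7, 15.7 and 12.0 CPM to 24.2, 27.8 and 22.1 CPM. With LPS, all 3 Scnn1b-Tg libraries lay below all 3 WT libraries, whereas in medium the genotypes overlapped. The log2 fold change was 0.87 ± 0.11 in WT and 0.57 ± 0.11 in Scnn1b-Tg AMs.

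Among the cytoplasmic inhibitors, Nfkbia (chromosome 12, 55489410 to 55492647, minus strand) encodes IkB-alpha, the classical feedback inhibitor that is degraded and made anew after each stimulus. WT AMs held 235, 202 and 202 CPM in medium and 729, 678 and 842 CPM with LPS. In Scnn1b-Tg AMs the medium libraries held 147, 177 and 145 CPM and the LPS libraries 659, 854 and 853 CPM. Every Scnn1b-Tg medium library was below every WT medium library, while the lowest and the highest of the 6 LPS libraries were both Scnn1b-Tg. The rise was 3.50-fold in WT (log2 1.81 ± 0.12) and 5.03-fold in Scnn1b-Tg AMs (log2 2.33 ± 0.12).

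Nfkbie (chromosome 17, 45555703 to 45563169, plus strand), the gene of IkB-epsilon, had the largest fitted rise of the 3 inhibitors. Its medium levels were 69.3, 69.9 and 55.3 CPM in WT and 39.9, 50.0 and 37.2 CPM in Scnn1b-Tg AMs. LPS brought them to 230, 273 and 261 CPM in WT and 263, 290 and 277 CPM in Scnn1b-Tg AMs. The groups did not overlap in medium and overlapped in LPS. This gave rises of 3.93-fold (log2 1.97 ± 0.13) and 6.53-fold (log2 2.71 ± 0.14).

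Nfkbib (chromosome 7, 28758251 to 28767512, minus strand) encodes IkB-beta, which is resynthesised more slowly than IkB-alpha. WT medium libraries held 121, 106 and 108 CPM, and Scnn1b-Tg medium libraries 78.1, 84.0 and 74.5 CPM. LPS libraries held 244, 188 and 212 CPM in WT and 240, 223 and 306 CPM in Scnn1b-Tg AMs. Only the medium libraries separated by genotype. Nfkbib rose 1.93-fold in WT (log2 0.95 ± 0.13) and 3.25-fold in Scnn1b-Tg AMs (log2 1.70 ± 0.13). Its exons share 356 bp with Ccer2 and Sirt2, and counting ignored strand. Sirt2 was at 118 to 157 CPM over all libraries, near the level of Nfkbib in medium, so reads of the shared stretch may be counted for either gene.

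The 2 nuclear IkB genes differed widely in how far they rose. Nfkbiz (chromosome 16, 55811375 to 55838899, minus strand) encodes IkB-zeta, a nuclear cofactor of NF-kB needed for a late group of LPS-induced genes. It was at 3.49, 3.06 and 3.96 CPM in WT medium and at 82.0, 99.9 and 89.0 CPM in WT LPS. Scnn1b-Tg AMs had 2.82, 3.73 and 3.10 CPM in medium and 83.6, 80.5 and 86.9 CPM with LPS. This was the largest change of the family, at 25.8-fold in WT (log2 4.69 ± 0.13) and 26.1-fold in Scnn1b-Tg AMs (log2 4.70 ± 0.13), and the genotypes overlapped in both treatments. Ranked by fitted rise among 13729 genes, Nfkbiz was at place 130 in WT and 147 in Scnn1b-Tg AMs, and the next members were Nfkbie at 479 and 332.

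Bcl3 (chromosome 7, 19808462 to 19822770, minus strand) encodes Bcl-3, which binds p50 and p52 homodimers. Medium libraries held 36.9, 39.5 and 30.1 CPM in WT and 25.2, 26.0 and 21.5 CPM in Scnn1b-Tg AMs. LPS libraries held 83.1, 101 and 89.3 CPM in WT and 85.5, 83.5 and 92.4 CPM in Scnn1b-Tg AMs. As for Nfkb2, Relb and the cytoplasmic inhibitors, the genotypes were apart in medium and overlapped in LPS. The rise was 2.58-fold in WT (log2 1.37 ± 0.11) and 3.60-fold in Scnn1b-Tg AMs (log2 1.85 ± 0.12). Bcl3 exons share 161 bp with Gm16175, which reached 0.0761 CPM at most.

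A WT LPS library, that of pool 17, stood apart from the other 2 in many members. It had the highest of the 3 values for Nfkb2, Rel, Rela, Relb, Nfkbie, Nfkbiz and Bcl3 and the lowest for Nfkbia and Nfkbib. Leaving it out changed no call of a member in the comparisons it entered.

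Levels of different genes were compared per kb of exon. Nfkbia had the highest level in every group, at 132 ± 11.9 CPM per kb in WT medium, 96.9 ± 11.0 in Scnn1b-Tg medium, 466 ± 52.3 in WT LPS and 490 ± 69.6 in Scnn1b-Tg LPS (SD, n = 3 each). In WT medium the order then ran Rela, Nfkbib, Nfkb2, Nfkbie, Relb, Bcl3, Nfkb1, Rel and Nfkbiz, and among these neighbours Rela and Nfkbib, and Nfkbie and Relb, overlapped between libraries. In Scnn1b-Tg medium the order was the same except that Relb and Nfkbie changed places, and these were the only neighbours that overlapped. With LPS, Nfkb2 stood second in both genotypes and Nfkbiz lay above Nfkb1 and Rel. Nfkb2, Rela and Nfkbib lay close together there, at 119 ± 17.9, 99.5 ± 17.2 and 99.1 ± 12.9 CPM per kb in WT. In Scnn1b-Tg AMs they were at 122 ± 8.98, 103 ± 7.21 and 118 ± 20.2 CPM per kb. Nfkb2 lay above Rela within each LPS library, although their ranges overlapped in WT. The place of Nfkbib among the 3 could not be told beyond the spread. Nfkbie overlapped the lowest of the 3 in each genotype, and Relb overlapped Bcl3. Rel was the lowest of all with LPS, at 3.31 ± 0.386 CPM per kb in WT and 2.74 ± 0.140 in Scnn1b-Tg AMs. The level of Nfkb1 depended on the length used, with 3.16 CPM per kb in WT medium over 12061 bp of all its exons and 9.18 over its longest transcript of 4149 bp. Over the longest transcripts, Nfkbiz and Nfkb1 overlapped with LPS, at 21.9 ± 2.20 and 19.2 ± 0.796 CPM per kb in WT and at 20.3 ± 0.785 and 20.2 ± 1.37 in Scnn1b-Tg AMs, so their order there rests on the length. The order of Relb and Nfkbie in WT medium and that of Relb and Bcl3 with LPS also changed with it. Some overlaps changed too. Over the longest transcripts Nfkbie did not overlap Nfkb2, Rela or Nfkbib with LPS in either genotype. In medium Nfkbie then overlapped Bcl3 and not Relb, and in WT medium Nfkbib overlapped Nfkb2.

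The make-up of the subunit pool shifted with LPS. Rela led in medium, with 44.7 ± 1.12% of the summed CPM per kb of the 5 subunits in WT and 49.2 ± 1.03% in Scnn1b-Tg AMs, and Nfkb2 followed with 33.9 ± 0.907% and 29.3 ± 0.850%. With LPS the order was turned around, with Nfkb2 at 44.8 ± 0.379% in WT and 44.7 ± 0.643% in Scnn1b-Tg AMs and Rela at 37.4 ± 1.17% and 37.5 ± 0.252% (SD, n = 3 each). The Nfkb2 shares of the LPS and medium libraries did not overlap in either genotype, and in medium the share was below that of WT in all 3 Scnn1b-Tg libraries. Of the 3 cytoplasmic inhibitors, Nfkbib lost share with LPS, from 25.1 ± 0.529% to 15.3 ± 2.02% in WT and from 24.8 ± 1.12% to 16.9 ± 2.46% in Scnn1b-Tg AMs, while Nfkbia held 64.5 to 71.7% of the sum in the 4 group means. The inhibitors summed to 1.71 ± 0.201 times the subunits in WT medium, 1.50 ± 0.193 times in Scnn1b-Tg medium, 2.49 ± 0.479 times in WT LPS and 2.56 ± 0.354 times in Scnn1b-Tg LPS. The genotypes overlapped in this ratio in both treatments, and the lowest LPS value was the 1.94 of WT pool 17. These shares are sums of values described above and were given no test of their own.

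**Figure D2:**
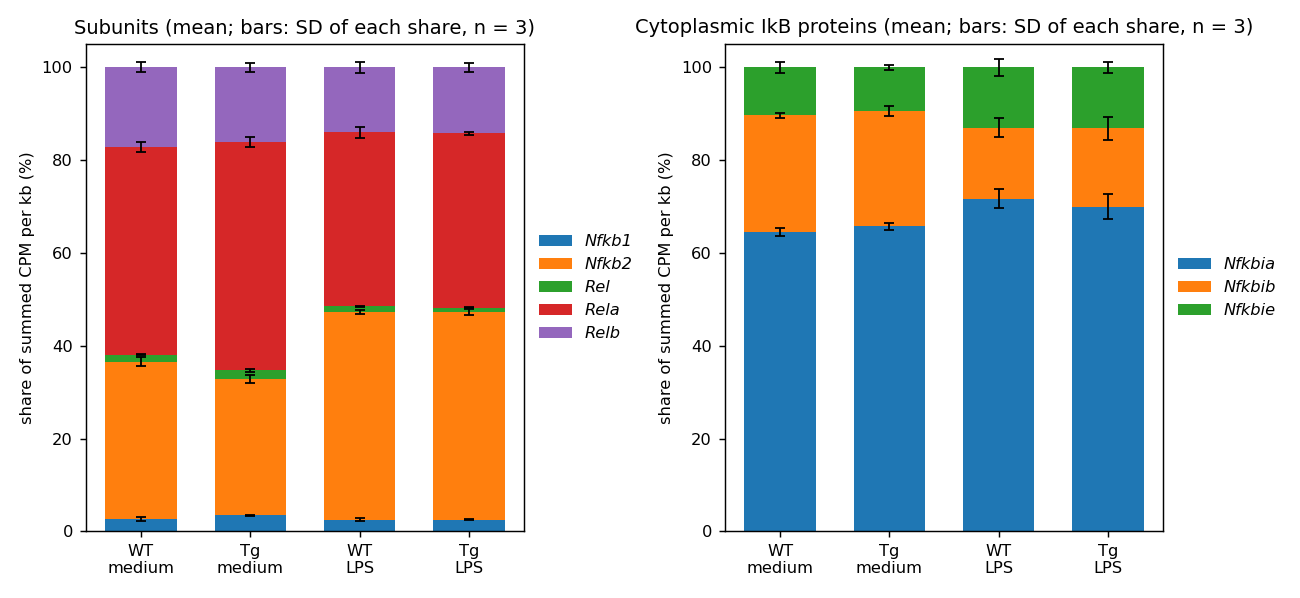
Shares of the 5 subunit transcripts (left) and of the 3 cytoplasmic inhibitor transcripts (right) in their summed CPM per kb of exon, in percent, as means of 3 libraries per group with the SD of each share at its upper edge. Nfkb2 takes 33.9% of the subunit sum in WT medium and 44.8% in WT LPS, and 29.3% and 44.7% in Scnn1b-Tg AMs.

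Scnn1b-Tg and WT AMs were compared in medium to describe the resting state. No member passed the adjusted threshold by edgeR, where 0.335% of all genes did (0.168% lower in Scnn1b-Tg AMs). At an unadjusted p under 0.05, 6 of the 10 members were lower in Scnn1b-Tg AMs and 0 were higher, against 5.81% of all genes lower. They were Nfkb2, Relb, Nfkbia, Nfkbib, Nfkbie and Bcl3, and the same 6 were those whose 3 Scnn1b-Tg libraries all lay below the 3 WT libraries, as did 9.38% of all genes. DESeq2 with the same design called these 6 lower, with adjusted p from 0.00198 for Nfkbie to 0.0256 for Nfkbib, so the call depends on the tool. The shares of all genes above are those of edgeR. The share that DESeq2 called is not given, so its 6 calls have no such value beside them.

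In the edgeR fit the largest difference was that of Nfkbie, whose level in Scnn1b-Tg AMs was 0.655 times that of WT (log2 -0.61 ± 0.13, adjusted p = 0.0856). Nfkbia followed with log2 -0.51 ± 0.12 (adjusted p = 0.0973) and Bcl3 with -0.51 ± 0.12 (adjusted p = 0.101). Nfkbib was at -0.50 ± 0.14 (adjusted p = 0.144), Nfkb2 at -0.45 ± 0.11 (adjusted p = 0.106) and Relb at -0.40 ± 0.09 (adjusted p = 0.106). All 10 members, the overlapping 4 included, had the same sign in both batches, as did 62.9% of all genes, with log2 differences of -0.79 in batch 1 and -0.35 in batch 2 for Nfkbie and of -0.44 and -0.31 for Relb. The other 4 members overlapped between genotypes, with 95% confidence intervals of -0.36 to 0.15 for Rela, -0.10 to 0.31 for Nfkb1, -0.14 to 0.38 for Rel and -0.46 to 0.14 for Nfkbiz on the log2 scale. The 10 members had a median of -0.42, against 0.01 over all genes. Of the 1888 genes that were called higher with LPS in both genotypes, 65.7% had a fitted value below 0 in this comparison and 358 were lower at an unadjusted p under 0.05, but these genes were chosen with the same medium libraries.

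**Figure D3:**
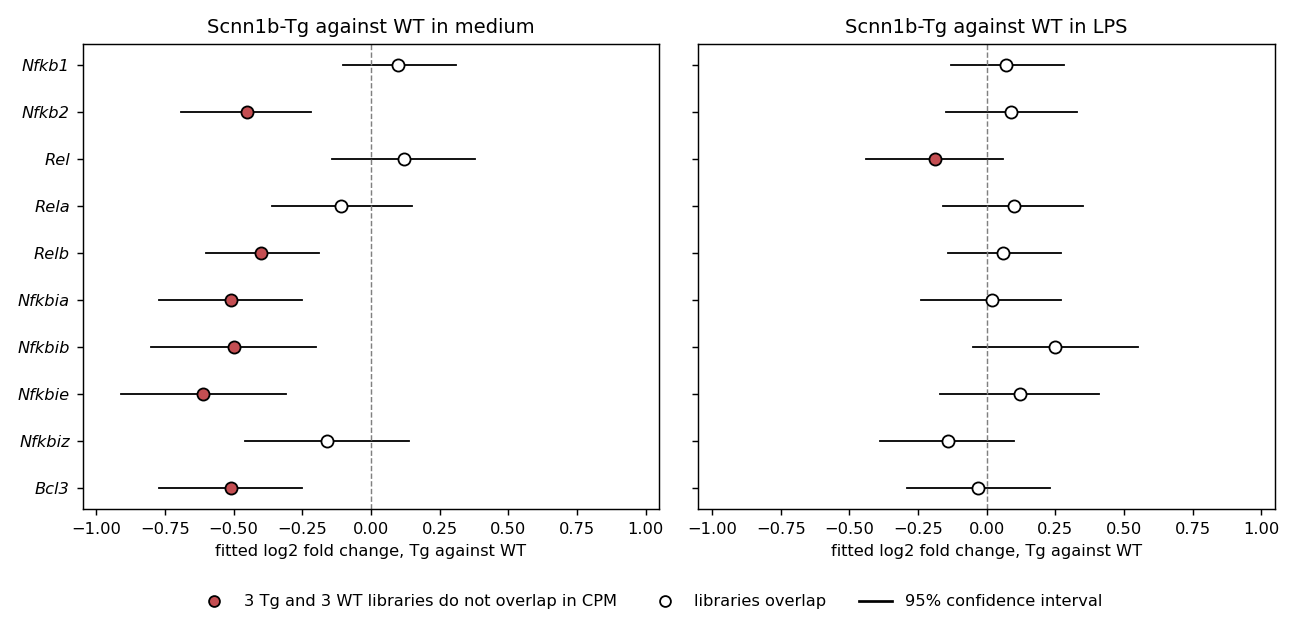
Fitted log2 fold change of each member between Scnn1b-Tg and WT AMs in medium (left) and with LPS (right), with 95% confidence intervals as lines and filled points where the 3 Scnn1b-Tg and 3 WT libraries do not overlap in CPM. In medium 6 intervals lie wholly below 0, from -0.61 for Nfkbie to -0.40 for Relb, whereas with LPS every interval spans 0.

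Several marker sums moved with genotype in these libraries, and their part in the result was not tested. In medium, the summed CPM of the 12 AM markers ran from 17229 to 17554 in WT and from 19386 to 23314 in Scnn1b-Tg AMs. Chil3, the most abundant, was alone at 9545 to 10329 CPM in WT and 11503 to 14406 CPM in Scnn1b-Tg AMs. By edgeR 0 of the 12 were called. Marco and Adgre1 had fitted values below 0, and the others had values above 0. The 6 epithelial markers, all detected, summed to 82.7 to 107 CPM in WT and 43.2 to 75.2 CPM in Scnn1b-Tg AMs. Only Scgb1a1, which led the sum, did not overlap between genotypes. It was at 34.2 to 71.7 CPM in WT and at 13.9 to 29.0 CPM in Scnn1b-Tg AMs. By edgeR 0 of the 6 were called. Cdh1 had a fitted value above 0, and the other epithelial markers had values below 0. Of 7 neutrophil markers 5 were in the table, and they summed to 17.1 to 20.8 CPM in WT and 25.6 to 37.7 CPM in Scnn1b-Tg AMs, led by Mmp8, whereas the defining marker S100a9 had at most 8 counts in every library. By edgeR 0 of the 4 neutrophil markers tested were called, and all 4 had fitted values above 0. The sums of monocyte, dendritic cell, T or NK cell and B cell markers overlapped between genotypes in medium. The red blood cell markers had at most 8 counts each in every library.

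With LPS the genotypes were closer. By edgeR 0 of 10 members were called and 0 had an unadjusted p under 0.05, and DESeq2 called 0. Among all genes, 0.0510% were called and 7.12% had such a p. Rel was the only member whose libraries did not overlap, lower in Scnn1b-Tg AMs by a log2 fold change of -0.19 ± 0.11 (adjusted p = 0.838), where 3.39% of all genes were lower without overlap. Nfkbib had the highest fitted value, at 0.25 ± 0.14 (95% interval -0.05 to 0.55), and its libraries overlapped. That value and its rank rested on the Scnn1b-Tg LPS library of pool 19, since without it Nfkbib was at 0.11 and Nfkbie at 0.12, and without both WT libraries of pool 18 Nfkbib was at 0.16. The interval of Rel ran from -0.44 to 0.06, and those of the other 8 members reached no further than -0.39 (Nfkbiz) and 0.41 (Nfkbie). The median of the 10 members was 0.07, against 0.0045 over all genes. The marker sums of 3 other cell types separated the genotypes with LPS. The epithelial sums were lower in Scnn1b-Tg AMs, at 34.6 to 66.1 CPM against 80.1 to 117 CPM in WT. The T or NK cell sums were lower too, at 13.0 to 23.3 against 24.0 to 37.1 CPM. Nearly all of these was Cd2, at 12.4 to 22.3 against 23.8 to 36.0 CPM. No other gene of that list was above 0.677 CPM with LPS. The neutrophil sums were higher, at 16.5 to 22.0 CPM against 12.0 to 15.3 CPM in WT. By edgeR 0 genes of these 3 lists were called between genotypes with LPS. The part of these sums in the values of the members was not tested.

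Whether the genotypes differed in the size of the response was tested as an interaction. By edgeR no member passed, nor did any gene of the table (0% called). At an unadjusted p under 0.05, 6 of 10 members rose further in Scnn1b-Tg AMs, where 3.32% of all genes did and 13.5% of the 1888 genes that rose with LPS in both genotypes. The 6 were Nfkbib (log2 difference of the changes 0.75 ± 0.19), Nfkbie (0.73 ± 0.18), Nfkb2 (0.54 ± 0.15), Nfkbia (0.53 ± 0.16), Bcl3 (0.48 ± 0.16) and Relb (0.46 ± 0.13), with adjusted p from 0.472 to 0.670 by edgeR. DESeq2 called Nfkbie (adjusted p = 0.0398) and Nfkbib (adjusted p = 0.0436), and its share of all genes is not given. These are the members that were lower in Scnn1b-Tg AMs in medium, and both comparisons use the same medium libraries, so they are not separate evidence.

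Pool by pool, as LPS minus medium of the same pool, the log2 change of Nfkbib was 1.01, 0.83 and 0.98 in WT pools 16, 17 and 18 and 1.61, 1.40 and 2.03 in Scnn1b-Tg pools 17, 18 and 19. That of Nfkbie was 1.73, 1.96 and 2.23 in WT pools and 2.71, 2.52 and 2.88 in Scnn1b-Tg pools. For 7 members (Nfkb2, Rela, Relb, Nfkbia, Nfkbib, Nfkbie and Bcl3) all 3 Scnn1b-Tg pools changed more than all 3 WT pools, as did 9.18% of all genes. Rel went the other way, with 0.90, 0.80 and 0.85 in WT pools and 0.42, 0.48 and 0.76 in Scnn1b-Tg pools, an order shared with 7.35% of all genes. The pools overlapped for Nfkb1 and Nfkbiz, and the Nfkbiz means were 4.51 ± 0.27 and 4.51 ± 0.22 (SD, n = 3 pools each). The two-sided exact permutation p was 0.1 for each of the 8 that did not overlap, the smallest that 3 against 3 pools allow. Lack of overlap alone fixes this value, so it is not separate evidence, and the permutations ignored the batch.

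**Figure D4:**
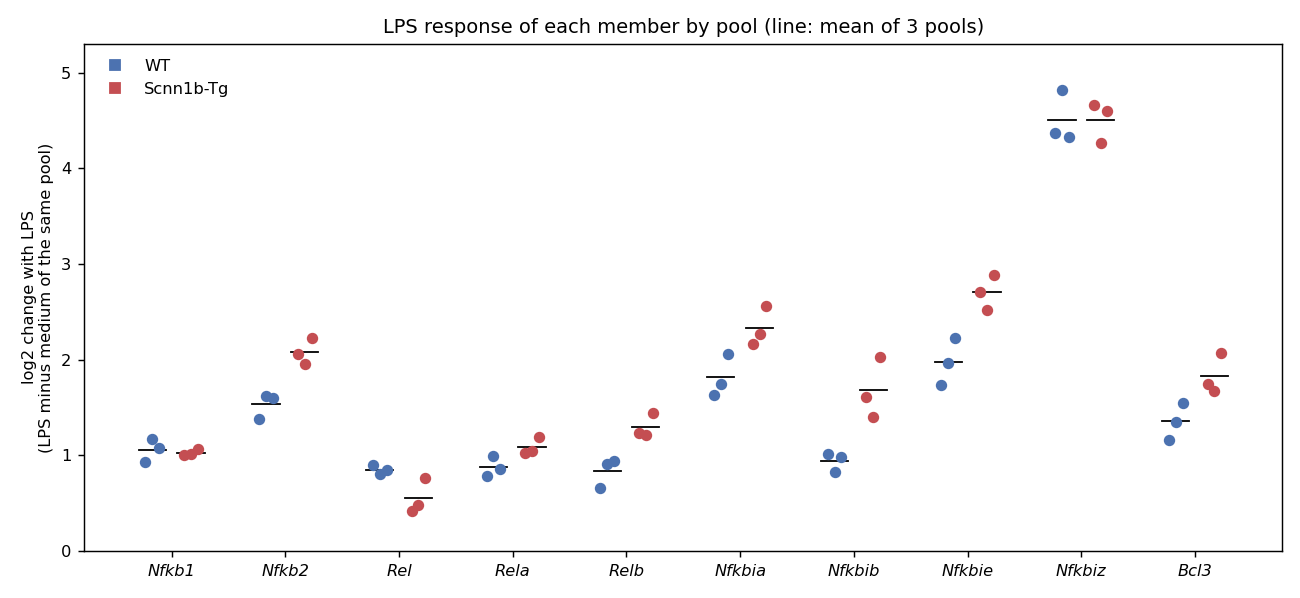
Change of each member with LPS in each pool (vertical axis, log2 CPM with LPS minus log2 CPM in medium of the same pool), with WT pools in blue, Scnn1b-Tg pools in red and the mean of 3 pools as a line. For Nfkbib the Scnn1b-Tg pools lie at 1.40 to 2.03 and the WT pools at 0.83 to 1.01, whereas for Nfkbiz and Nfkb1 the pools of both genotypes overlap.

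Other genes of the pathway were taken from 4 lists of 53 genes that are no members. Of 17 upstream kinases and adaptors, 11 rose with LPS in WT and 10 in Scnn1b-Tg AMs, and none was called lower. Of all genes, 15.5% were called higher in WT and 19.3% in Scnn1b-Tg AMs. The largest rises in both genotypes included Traf5, an adaptor of TNF receptors (log2 2.07 ± 0.09 in WT and 2.33 ± 0.09 in Scnn1b-Tg AMs), Ikbke, an IkB kinase-related kinase (1.36 ± 0.11 and 1.66 ± 0.11), and Traf2, another TNF receptor adaptor (1.30 ± 0.08 and 1.62 ± 0.08). Ikbkg, the regulatory subunit of the IkB kinase complex, rose by 1.19 ± 0.11 and 1.77 ± 0.11 and was the gene of this list nearest to a call between genotypes in medium, at -0.59 ± 0.11 (adjusted p = 0.0524, edgeR). The list had medians of 0.63 (WT) and 0.65 (Scnn1b-Tg), below those of the members. None of the 17 was called between genotypes or in the interaction by edgeR. At an unadjusted p under 0.05, 1 was higher and 4 were lower in medium, where 5.81% of all genes were lower. With LPS 2 were higher and 0 lower, where 7.12% of all genes had such a p. In the interaction 3 were higher and 0 lower, where 3.32% of all genes were higher.

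Of 12 other inhibitors of the pathway, 6 rose in each genotype and none was called lower. The share of all genes called higher was 15.5% in WT and 19.3% in Scnn1b-Tg AMs. Tnfaip3, which encodes the ubiquitin-editing enzyme A20, rose by log2 2.36 ± 0.28 in WT and 2.67 ± 0.29 in Scnn1b-Tg AMs. Tnip1, an A20-binding protein, rose by 1.72 ± 0.11 and 1.56 ± 0.11. Nfkbid, another nuclear IkB gene, rose by 1.53 ± 0.16 and 1.49 ± 0.16, and Nfkbil1 by 1.06 ± 0.15 and 1.27 ± 0.15. None of the 12 was called between genotypes or in the interaction by edgeR, with 1 higher and 0 lower at an unadjusted p under 0.05 in medium, 0 in LPS and 0 in the interaction.

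Of 20 textbook target genes 18 were in the table and tested, and 15 were called higher and 1 lower in WT, 16 higher and 0 lower in Scnn1b-Tg AMs. Over all genes 15.5% and 19.3% were called higher. The chemokine genes Cxcl1 and Cxcl2 led, with log2 8.04 ± 0.33 and 7.48 ± 0.31 in WT and 8.58 ± 0.34 and 8.32 ± 0.32 in Scnn1b-Tg AMs. Traf1 rose by 6.99 ± 0.27 and 7.02 ± 0.26, and Ptgs2, the gene of cyclooxygenase-2, by 6.44 ± 0.47 and 7.62 ± 0.52. Csf1, a macrophage growth factor, fell by 0.73 on the log2 scale in WT (adjusted p = 0.045, edgeR) and was at -0.56 ± 0.26 in Scnn1b-Tg AMs, without a call. Between genotypes in medium, 0 of 18 were called by edgeR and 8 were lower at an unadjusted p under 0.05, with a median of -0.30. That held for 5.81% of all genes and for 358 of the 1888 genes that rose with LPS in both genotypes. In the interaction all 18 fitted values were above 0, 7 of them at an unadjusted p under 0.05 and 0 called, with a median of 0.45. Among all genes 50.5% were above 0 and 3.32% were so at this p, and among the 1888 genes 71.5% and 13.5%. As for the members, these 2 comparisons share the medium libraries.

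For each member, the protein-coding gene outside the family whose log2 CPM followed it most closely over the 12 libraries was sought among 8757 genes whose mean was 5 CPM or more. Several of these neighbours belong to LPS responses. Nfkbia was nearest to Sod2, the mitochondrial superoxide dismutase (Pearson r = 0.9964), Bcl3 to Icam1, a leukocyte adhesion molecule (r = 0.9962), and Nfkbiz to Il1a, the gene of interleukin-1 alpha (r = 0.9976). Icam1 and Sod2 are on the target list, and had log2 differences of -0.60 ± 0.11 and -0.50 ± 0.13 between genotypes in medium, with adjusted p of 0.0589 and 0.136 by edgeR. Nfkb2 was nearest to Gnaq (r = 0.9961), Rela to Slc12a4 (r = 0.9964), Nfkbie to Cdc42ep2 (r = 0.9977) and Relb to Sntb2 (r = 0.9921). Nfkb1 was nearest to Arfgap3 (r = 0.9912), Nfkbib to Anxa7 (r = 0.9896) and Rel, with the weakest likeness, to Rdh13 (r = 0.9698). These values are descriptions, since the libraries share the LPS contrast that moved many genes.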

How the data were processed

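RNA of 12 libraries (4 groups of 3) was analysed. Libraries had been made with SMART-Seq v4 and sequenced as read pairs. The authors aligned reads to mm10 with HISAT2 without strand, quantified them with StringTie against GENCODE M20 and deposited estimated counts per gene, as whole numbers. One read pair is worth several such counts: 55.3% of 47985 values from 1 to 30 left a remainder of 0 or 3 on division by 5, against 40.0% for an even spread. The counts were analysed as deposited and, as an alternative, divided by 5. The reads were amplified and carried no molecular identifiers. Totals of 48.2 to 60.9 M counts per library set the precision.

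Genes kept by filterByExpr (minimum count 10, minimum total 15) numbered 13729. TMM factors and a quasi-likelihood model with terms for group and batch were fitted to all 12 libraries in edgeR 4.0.16 (R 4.3.3), with two-sided tests and Benjamini-Hochberg adjustment over all genes at 0.05. Alternatives used DESeq2 1.42.0 and limma 3.58.1. The fit was tested on simulated counts with known changes. Changes by pool used log2 of CPM plus 0.5. Levels per kb used the union of exons of GENCODE M21 on mm10, in which 20132 of 20551 IDs were found.

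Medium and LPS libraries with the same number in their titles come from 1 pool, and their deviations from the group means correlated with r from 0.21 to 0.50 in all 6 pools. Blocking on the pool left all LPS calls of members as they were.

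The members and gene lists were chosen with earlier results of these data known. Named genes were all members, per pathway list and comparison at most 4 called genes in each direction by size of change, and the most similar gene of each member. Tnfrsf13c did not pass the filter, and Bcl2a1a and Bcl2a1d were not analysed here.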

Additional observations from a re-analysis of the deposited data

How the results depend on the processing

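The 10 calls of LPS against medium in each genotype and the 0 calls between genotypes with LPS held under all alternatives tried: another normalization, no filter, DESeq2, counts divided by 5, no batch term, only the compared groups, pool or number blocks, and, both added after seeing the data, an older quasi-likelihood estimate and leaving out whole pools. In medium, 0 members were called between genotypes by edgeR, 6 by DESeq2 and 1 (Nfkb2, log2 -0.54) with a replicate block on the pool number in place of the batch; the cause was not tested. With the pool as a random effect it was 0. That number is shared by WT and Scnn1b-Tg pools 17 and 18 only, whose deviations correlated with r from 0.14 to 0.44. Pools of the same number also share a batch, which was not removed from these deviations. Number and batch therefore cannot be told apart in this correlation. In the interaction, 0 were called by edgeR, 2 by DESeq2 and 0 with a block on the pool, fixed or random. Shares of all genes are given for edgeR only. Leaving out 1 library or pool gave 0 calls in medium, with LPS and in the interaction. Only values near 0 and without a call changed sign. Between genotypes with LPS, Rela was at -0.01 with the number block, and Nfkbia at -0.0015 without a filter and -0.06 from the compared groups only. Leaving out 1 library or pool gave -0.04 to 0.14 for Nfkbia, -0.02 to 0.15 for Nfkb1, -0.01 to 0.13 for Relb and -0.10 to 0.07 for Bcl3, and in the interaction -0.10 to 0.04 for Nfkb1 and -0.09 to 0.19 for Nfkbiz. With the longest transcript in place of the union of exons, 23 of 40 levels per kb moved by more than 1 SD, most for Nfkb1 (3.16 to 9.18 CPM per kb in WT medium). Another normalization moved the median of all genes by at most 0.0128 on the log2 scale.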

Other observations

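The receptors that feed the non-canonical branch, which ends in the products of Nfkb2 and Relb, were a list of 5 genes of which 4 could be tested. Cd40 was at 0 to 0.412 CPM in medium and at 4.06 to 17.7 CPM with LPS, which was a rise of 4.46 ± 0.50 on the log2 scale for WT and of 5.96 ± 0.48 for Scnn1b-Tg AMs. With LPS it lay at 4.06 to 6.13 CPM in WT and at 9.98 to 17.7 CPM in Scnn1b-Tg AMs, a log2 difference of 1.27 ± 0.34 that edgeR did not call (adjusted p = 0.291). Tnfrsf1b, the second TNF receptor, rose by 1.02 ± 0.11 in WT and 1.17 ± 0.11 in Scnn1b-Tg AMs. Tnfrsf11a, which encodes RANK, fell by 0.37 in WT (adjusted p = 0.031, edgeR) and was at -0.26 ± 0.12 in Scnn1b-Tg AMs, without a call. None of the 4 was called by edgeR between genotypes or in the interaction, with 1 of 4 (Cd40) at an unadjusted p under 0.05 with LPS and 0 in medium and in the interaction. Over all genes 7.12% had such a p with LPS.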
